A study of Mus musculus with 6 samples.

Results

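The mitochondrial ribosomal protein genes were taken as the protein-coding genes whose mouse symbol begins with Mrpl or Mrps and a digit. They were 78 of the 56305 genes measured, 49 named Mrpl and 29 named Mrps, and they lay on 17 chromosomes. Their transcripts were measured by RNA-Seq of poly-A RNA in whole liver, with 1 library for each of 3 WT and 3 Vps15LKO mice. All 6 mice were males of 5 weeks, fed ad libitum under a 12 h light-dark regimen, and their livers were collected at ZT6, which is 6 h after the lights went on. Vps15LKO mice are AlbCre+;Vps15 f/f, so Vps15, the regulatory subunit of class 3 PI3K, was deleted by a Cre driven by the albumin promoter, which is active in hepatocytes. The control livers are called WT, and the sources used here do not spell out whether they carried the floxed allele without Cre.

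Mitochondria have their own ribosome, which makes the few proteins encoded by mtDNA, all of them subunits of the respiratory chain and ATP synthase. Its RNAs come from mtDNA, but every protein in it is encoded in the nucleus, made in the cytosol and imported. Compared with the bacterial ribosome from which it descends, it has less RNA and many added proteins, and its large subunit sits at the inner membrane, where the new chains are inserted. The assay measured the messenger RNAs of these proteins and not the ribosome itself.

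The deposited value of a gene is its read count divided by 1 DESeq2 size factor per library, called here the normalized count. The libraries held 16137093 to 18110223 reads on genes, but the size factors ranged from 0.742 to 0.801 for the WT libraries and from 1.23 to 1.41 for those of Vps15LKO livers. At an equal share of the reads, a gene is thus given a lower normalized count in Vps15LKO livers. Genes were compared with limma on log2(normalized count + 1), and log2 fold changes, Vps15LKO over WT, are on that scale. Calls needed a Benjamini-Hochberg adjusted p below 0.05 together with a fold of 1.2 or more. The same test on libraries scaled to equal totals of reads moved the middle of all log2 fold changes up by 0.72, so counts of calls on that scale follow those with size factors. An exact permutation test of a single value cannot go below a p of 0.1 with 3 livers on each side.

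All 78 members passed the filter on low values, which 15430 genes passed. In Vps15LKO livers 61 of the 78 were called lower and 1, Mrpl54, was called higher, while 33.0% of all tested genes were called lower and 33.5% higher (limma). The normalized counts of all 3 Vps15LKO livers lay below those of all 3 WT livers for 65 members, against 36.8% of tested genes, and above them for 2, Mrpl54 and Mrpl23, against 36.4%. The median log2 fold change of the members was −0.49 (quartiles −0.65 and −0.36), and over every tested gene it was −0.02 (quartiles −0.55 and 0.75). The interquartile range of the members was 21.8% of that of all tested genes, and those of the cytosolic ribosomal protein and respiratory chain genes were 18.4% and 18.3%. Vps15LKO levels lay between 42.4% and 143% of WT, with a median of 71.1%.

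On equal totals of reads the picture turned. There 4 members were called lower and 28 higher, against 11.1% and 66.7% of tested genes, and their median log2 fold change was 0.23 where the background of tested genes had 0.70. Measured from the median of all tested genes the members lay at −0.47 on either scale, a distance that rescaling whole libraries leaves nearly as it is. The 4 genes called lower on both scales were Mrps35, Mrps31, Mrpl39 and Mrpl47, and Mrpl54 was called higher on both. For the other 73 members the call differed between the scales, and 63 members had a positive log2 fold change on equal totals of reads. With edgeR on the recovered reads 58 members were lower and 1 higher (31.3% and 34.9% of tested genes). With upper-quartile scaling 51 were lower and 2 higher (27.5% and 37.3%), and at a fold of 1.5 or more 27 were lower and 0 higher (23.1% and 27.6%; limma, with 1 higher at an unadjusted p under 0.05 and 1 called by edgeR and by DESeq2 at a fold of 1.2).

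**Figure D1:**
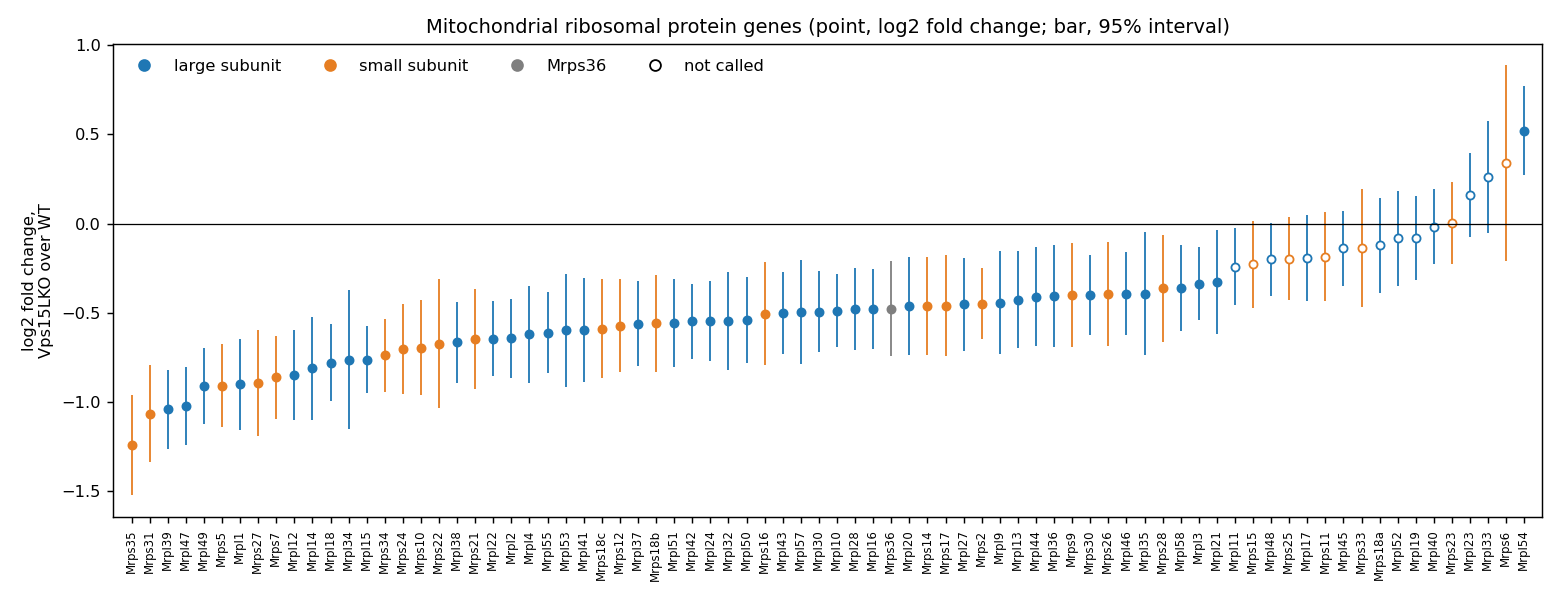
Log2 fold change of normalized counts, Vps15LKO over WT, for each of the 78 mitochondrial ribosomal protein genes in rising order (point, estimate; bar, 95% interval; n = 3 livers per genotype; filled, called; open, not called; blue, large subunit; orange, small subunit; grey, Mrps36). The quartiles are −0.65 and −0.36, and the points run from Mrps35 at −1.24 to Mrpl54 at 0.52; on equal totals of reads the median becomes 0.23.

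Summed over the members, the normalized counts were 49262, 42689 and 45366 in WT and 30858, 32806 and 31510 in Vps15LKO livers, or 69.3% of WT. Their reads were 0.209%, 0.189% and 0.209% of all reads on genes in WT and 0.225%, 0.224% and 0.247% in Vps15LKO livers, or 115% of WT. The groups did not overlap on either scale, in opposite directions. Ratios within a library do not depend on the scale. For each read on a member, the nuclear-encoded respiratory chain genes had 4.84, 4.76 and 4.48 reads in WT and 3.61, 3.84 and 3.37 in Vps15LKO livers. The cytosolic ribosomal protein genes had 4.87, 4.72 and 4.55 reads for each read on a member in WT and 9.11, 7.88 and 10.4 in Vps15LKO livers. The share of the mitochondrial ribosomal proteins was thus higher against the respiratory chain and lower against the cytosolic ribosome in each Vps15LKO liver than in any WT liver.

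**Figure D2:**
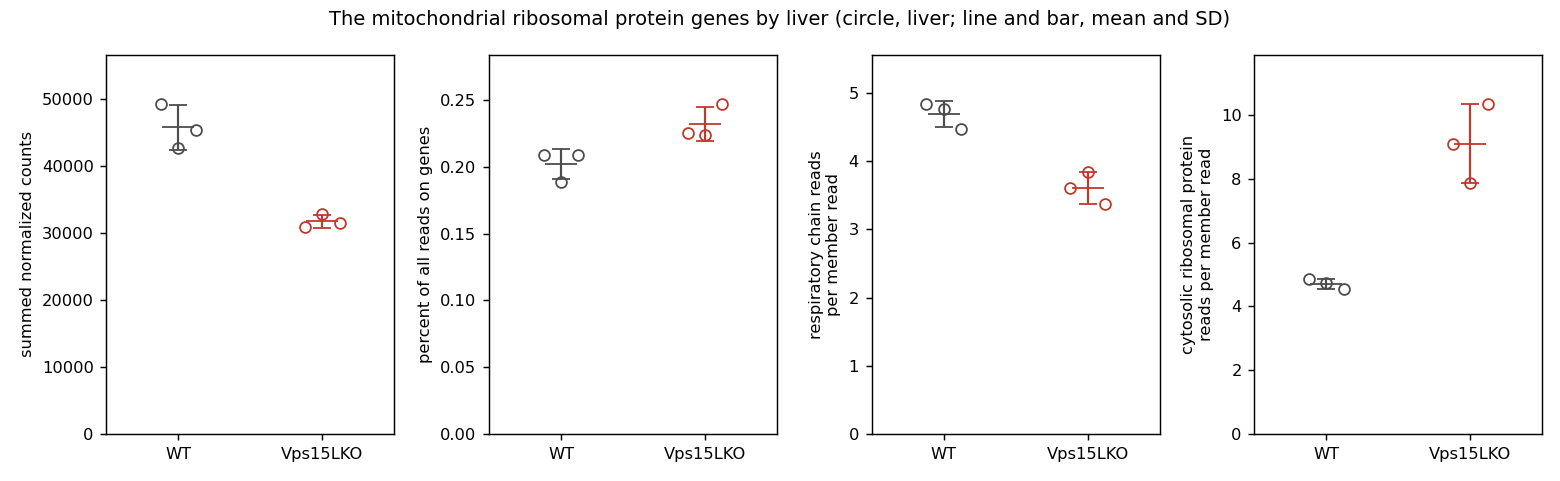
Summed levels of the 78 members in each liver (circles, 3 WT and 3 Vps15LKO livers; line and bar, mean and SD), from left to right as normalized counts, as percent of all reads on genes, and as the reads of 85 nuclear-encoded respiratory chain genes and of 83 cytosolic ribosomal protein genes for each read on a member. Vps15LKO livers lie below WT for normalized counts and respiratory chain reads (69.3% and 76.9% of the WT mean) and above it in the other plots (115% and 193%).

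Of 78 tested respiratory chain genes, 75 were called lower, with a median log2 fold change of −0.93. Of 79 tested cytosolic ribosomal protein genes, 3 were called lower and 58 higher, with a median of 0.44. On equal totals of reads the medians were −0.20 and 1.17, with 24 respiratory chain genes called lower and 4 higher, and 78 cytosolic ribosomal protein genes called higher. Over all tested genes 33.0% were lower and 33.5% higher with size factors, and 11.1% and 66.7% on equal totals of reads. The median of the mitochondrial ribosomal proteins lay between those of the other two groups, an order that a change of scale leaves as it is. Fewer hepatocytes in the tissue and less RNA per hepatocyte cannot be told apart in bulk samples.

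**Figure D3:**
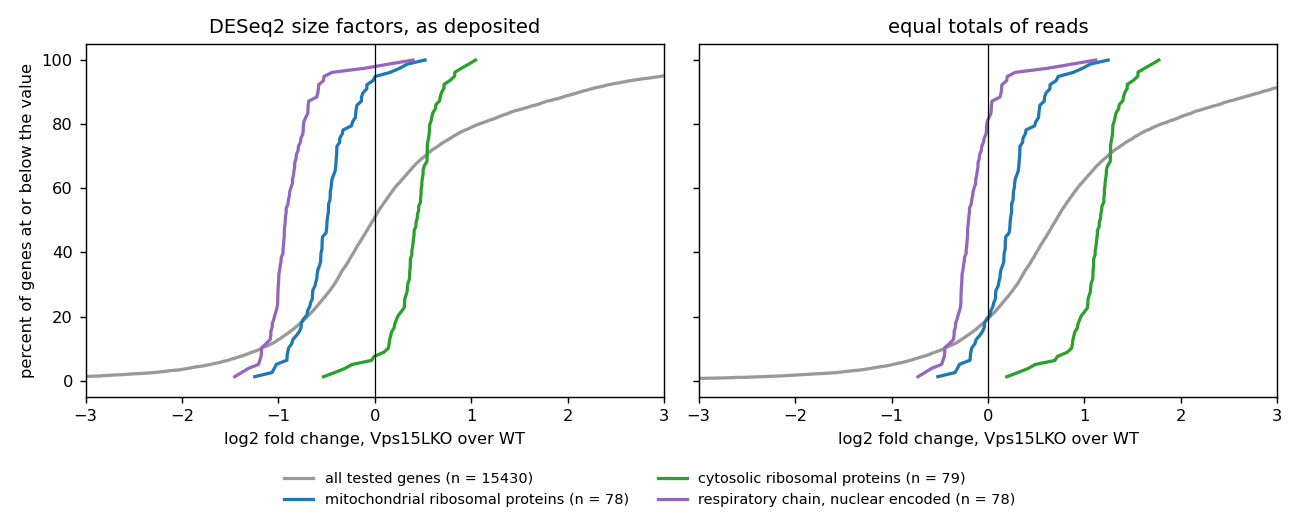
Cumulative share of genes (y axis, percent) at or below a log2 fold change, Vps15LKO over WT (x axis, cropped at both ends), with DESeq2 size factors on the left and with equal totals of reads on the right (grey, 15430 tested genes; blue, 78 mitochondrial ribosomal proteins; green, 79 cytosolic ribosomal proteins; purple, 78 nuclear-encoded respiratory chain genes). The medians of the respiratory chain, the mitochondrial ribosome and the cytosolic ribosome are at −0.93, −0.49 and 0.44 on the left and −0.20, 0.23 and 1.17 on the right, where every curve is shifted by nearly the same amount.

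The large subunit, which joins amino acids into the chain, had 51 measured genes. Of these, 40 were called lower and 1 higher, with a median log2 fold change of −0.49, and on equal totals of reads 2 lower and 20 higher, with a median of 0.24. The small subunit, which holds the messenger RNA and reads its codons, had 26, of which 20 were called lower, with a median of −0.53, and on equal totals of reads 2 lower and 8 higher, with a median of 0.19. The read counts of the large subunit genes were 2.40, 2.41 and 2.45 times those of the small subunit genes in WT and 2.59, 2.56 and 2.59 times in Vps15LKO livers, so the ratio was slightly higher in every Vps15LKO liver. Of the genes for proteins with a bacterial homologue 38 of 46 were lower, with a median of −0.48, and of those for proteins added in mitochondria 22 of 31, with a median of −0.50. With equal totals of reads 1 of the 46 was lower and 15 higher, and 3 of the 31 were lower and 13 higher. In the head of the small subunit 7 of 8 genes were called lower, with a median of −0.70, and on equal totals of reads 2 lower and 1 higher, with a median of 0.03. Of 5 platform genes 2 were called lower, a share near the 33.0% of all tested genes, and on equal totals of reads 3 were called higher, with medians of −0.23 and 0.50. Over all tested genes 11.1% were lower and 66.7% higher on that scale. Whether these classes differ was not tested.

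Mrps35, a mitochondria-specific protein of the small subunit on chromosome 6 (147042764 to 147073991 in GRCm38), had 589, 551 and 535 normalized counts in WT and 248, 262 and 199 in Vps15LKO livers. Its log2 fold change of −1.24 ± 0.12 (SE, n = 3 livers per genotype) was the lowest of the 78 (limma, adjusted p = 4.1e-05), and it remained at −0.52 on equal totals of reads (adjusted p = 0.0018). Mrps31, another added protein of the small subunit head (chromosome 8, 22411361 to 22429665), had 629, 535 and 512 normalized counts in WT and 237, 283 and 277 in Vps15LKO livers, a log2 fold change of −1.07. These genes were at 42.4% and 47.6% of their WT level, and the genotypes did not overlap.

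In the large subunit, Mrpl39 (chromosome 16, 84717576 to 84735742) had 981, 868 and 855 normalized counts in WT and 435, 464 and 411 in Vps15LKO livers, a log2 fold change of −1.04. Mrpl47, the homologue of bacterial L29 (chromosome 3, 32725397 to 32737605), had 679, 612 and 644 in WT and 316, 339 and 298 in Vps15LKO livers, a log2 fold change of −1.02. Both proteins lie at the rim of the tunnel through which the new chain leaves the ribosome. On equal totals of reads Mrps31, Mrpl39 and Mrpl47 were still lower, by −0.34, −0.32 and −0.30 on the log2 scale (limma, adjusted p of 0.027, 0.011 and 0.020). Mrpl49 and Mrps5, the homologue of bacterial S5, completed the 6 largest falls at −0.91 each. Mrpl49 was at −0.19 and Mrps5 at −0.18 on equal totals of reads, and neither was called.

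Mrpl54, a mitochondria-specific protein of the large subunit on chromosome 10 (81264713 to 81266934), went the other way. It had 446, 366 and 435 normalized counts in WT and 554, 600 and 634 in Vps15LKO livers, without overlap. Its log2 fold change was 0.52 ± 0.11 (limma, adjusted p = 0.0028), or 143% of the WT level, and 1.25 on equal totals of reads. With any 1 liver left out it lay between 0.43 and 0.57. Mrpl23, the homologue of bacterial L23 at the tunnel exit, was also higher in each Vps15LKO liver than in any WT liver, at 411, 412 and 463 against 406, 351 and 394 normalized counts, but its log2 fold change of 0.16 was not called (limma, adjusted p = 0.20).

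**Figure D4:**
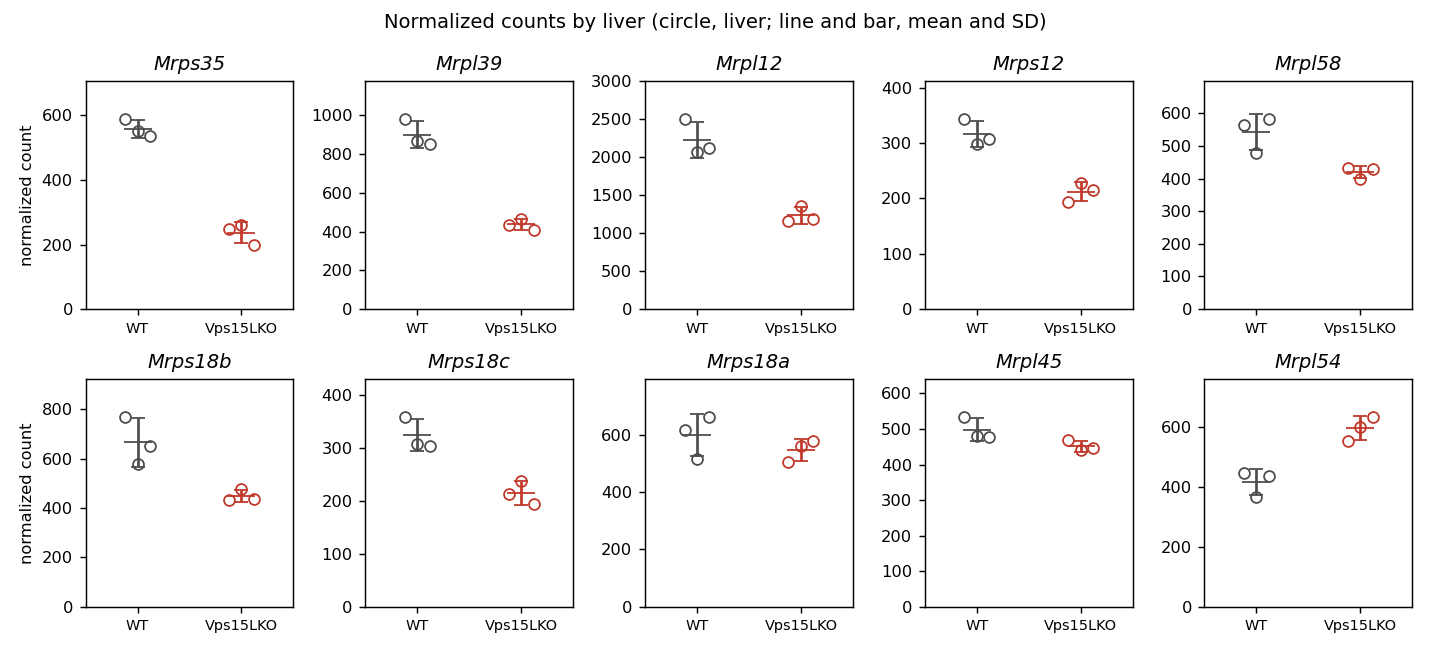
Normalized counts of 10 members in each liver (circles, 3 WT and 3 Vps15LKO livers; line and bar, mean and SD; each y axis starts at 0). The genotypes do not overlap for Mrps35, Mrpl39, Mrpl12, Mrps12, Mrpl58, Mrps18b, Mrps18c, Mrpl45 and Mrpl54, and they overlap for Mrps18a; Mrpl54 alone is higher in Vps15LKO livers.

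The stalk of the large subunit recruits translation factors, and its protein Mrpl12 also binds the mitochondrial RNA polymerase. Mrpl12 was the member with the highest WT level per length, at 1456 ± 155 normalized counts per kb of exon (SD, n = 3), and its normalized counts were 2503, 2069 and 2118 in WT and 1163, 1361 and 1183 in Vps15LKO livers. Its log2 fold change was −0.85 ± 0.11 (limma, adjusted p = 1.8e-04), and −0.12 and not called on equal totals of reads. Mrpl10, which anchors Mrpl12, had 1150, 1160 and 1127 normalized counts in WT and 754, 881 and 818 in Vps15LKO livers, a log2 fold change of −0.49. Mrpl11, at the stalk base, had 402, 387 and 373 in WT and 309, 339 and 336 in Vps15LKO livers, and its log2 fold change of −0.24 missed the fold of 1.2. The stalk genes were at 55.4%, 71.4% and 84.6% of WT with size factors, and of Mrpl10 (0.24) and Mrpl11 (0.48) only Mrpl11 was called, as higher, on equal totals of reads.

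Mrpl34 and Mrpl14 followed Mrpl12 in level, at 882 ± 202 and 857 ± 145 normalized counts per kb in WT, and had log2 fold changes of −0.76 and −0.81, and −0.04 and −0.09 on equal totals of reads, where neither was called. Mrpl12 stood above both by more than their spread, while Mrpl34, Mrpl14 and the next in level, Mrpl52 at 787 ± 118, did not differ beyond theirs. The lowest levels were those of Mrpl33 at 27.6 ± 4.78, Mrpl19 at 45.8 ± 1.61 and Mrpl3 at 56.4 ± 0.883 normalized counts per kb, against a median of 229 over the members. Mrpl3, the homologue of bacterial L3, had 375, 370 and 381 normalized counts in WT and 289, 297 and 304 in Vps15LKO livers, a log2 fold change of −0.34 that was called lower, and 0.39 and called higher on equal totals of reads. Mrpl19 (−0.08) and Mrpl33 (0.26) were not called with size factors, and their genotypes overlapped, but both were called higher on equal totals of reads. Mrpl48 at 56.9 ± 2.89 and Mrps9 at 56.9 ± 8.17 did not differ from Mrpl3 beyond their spread. The exons summed for Mrpl33, Mrpl19 and Mrpl3 are long, 7326, 5450 and 6661 bases, and include every annotated transcript, which lowers a level per kb.

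At the exit of the tunnel, Mrpl45 holds the ribosome to the inner membrane. Mrpl45 had 534, 481 and 479 normalized counts in WT and 469, 440 and 446 in Vps15LKO livers, a log2 fold change of −0.14 that was not called (limma, adjusted p = 0.21, 95% interval −0.35 to 0.07). Mrpl44, which has an RNase III-like fold, had 369, 296 and 306 in WT and 245, 258 and 223 in Vps15LKO livers, a log2 fold change of −0.41, and 0.31 and called higher on equal totals of reads. Over the 8 genes of the tunnel rim, 5 were called lower, with a range from −1.04 for Mrpl39 to 0.16 for Mrpl23, where 33.0% of all tested genes were lower, and on equal totals of reads 2 were lower and 4 higher, against 11.1% and 66.7%.

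In the central protuberance, which faces the small subunit, 3 of 5 genes were called lower, where 33.0% of all tested genes were, and on equal totals of reads 3 were called higher, a share near the 66.7% of all tested genes. Its member Mrpl18 had 610, 551 and 550 normalized counts in WT and 348, 330 and 315 in Vps15LKO livers, a log2 fold change of −0.78. Mrpl32, which must be cut by the m-AAA protease before it can join the ribosome, had 571, 431 and 480 in WT and 332, 352 and 325 in Vps15LKO livers, a log2 fold change of −0.55. The genes of that protease, Afg3l2 (−0.36) and Spg7 (−0.35), were called lower as well. Mrpl58, a peptidyl-tRNA hydrolase built into the large subunit, had 564, 480 and 582 in WT and 433, 398 and 429 in Vps15LKO livers, a log2 fold change of −0.36. All 5 of these genes were called lower with size factors, and on equal totals of reads Mrpl58, Afg3l2 and Spg7 were called higher.

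Mrps12, which lies at the site where codons are read, had 343, 299 and 307 normalized counts in WT and 193, 229 and 216 in Vps15LKO livers, a log2 fold change of −0.57 ± 0.11 (limma, adjusted p = 0.0020). Mammals have 3 paralogues of bacterial S18, which sit at different places of the ribosome. The lists used here place Mrps18c among the bacterial homologues and count Mrps18a and Mrps18b as proteins added in mitochondria. Mrps18b, in the small subunit, had 769, 576 and 650 normalized counts in WT and 431, 476 and 437 in Vps15LKO livers, a called log2 fold change of −0.56. Mrps18c, also in the small subunit, had 359, 309 and 305 in WT and 213, 238 and 195 in Vps15LKO livers, a called log2 fold change of −0.59. Mrps18a, which sits in the large subunit in spite of its name, had 618, 517 and 663 normalized counts in WT and 506, 561 and 579 in Vps15LKO livers. Its log2 fold change of −0.12 was not called and its genotypes overlapped. Whether the paralogues differ from each other was not tested. Mrps30, also a large subunit protein in spite of its name, had a called log2 fold change of −0.40. Of these genes Mrps30 (0.33) and Mrps18a (0.60) were called higher on equal totals of reads, while Mrps12 (0.15), Mrps18b (0.16) and Mrps18c (0.13) were not called. Mrps36, now known as a subunit of the ketoglutarate dehydrogenase complex and placed here in neither subunit, had 306, 260 and 326 normalized counts in WT and 212 in each of the Vps15LKO livers, a log2 fold change of −0.48, and 0.25 and not called on equal totals of reads.

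The 16 members not called were Mrpl11, Mrps15, Mrpl48, Mrps25, Mrpl17, Mrps11, Mrpl45, Mrps33, Mrps18a, Mrpl52, Mrpl19, Mrpl40, Mrps23, Mrpl23, Mrpl33 and Mrps6. Their log2 fold changes ran from −0.24 for Mrpl11 to 0.34 for Mrps6, and all 16 were called higher on equal totals of reads. Mrps6 had the largest error of the 78, 0.24 against a median of 0.11, with 171, 83.7 and 140 normalized counts in WT and 163, 151 and 166 in Vps15LKO livers. Mrps6 shares 305 exonic bases with Gm49711 and 159 with Slc5a3 on the same strand, so reads there cannot be told apart. WT replicate 2 was the low liver for Mrps6, and without it the log2 fold change was 0.04.

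Genes of the same process that carry other symbols were set beside the members. The 5 ribosomal subunits Dap3, Ptcd3, Chchd1, Aurkaip1 and Gadd45gip1 were all called lower, with log2 fold changes from −0.68 for Gadd45gip1 to −0.43 for Dap3, and on equal totals of reads 1, Dap3, was called, as higher. Of 10 translation factors, 7 were called lower, and on equal totals of reads 2 lower and 4 higher. Over all tested genes the shares were 33.0% lower with size factors, and 11.1% lower and 66.7% higher on equal totals of reads. The initiation factor Mtif2 had 581, 503 and 601 normalized counts in WT and 250, 260 and 228 in Vps15LKO livers, a log2 fold change of −1.19, and the release factor Mtrf1 was at −1.18. The elongation factor Tufm was at −0.59, and 0.13 and not called on equal totals of reads. Its exchange factor Tsfm was at 0.06 and Gfm2, which acts in recycling, at 0.00, and neither was called. On equal totals of reads Tsfm (0.78) and Gfm2 (0.72) were both called higher.

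Of 26 genes for the assembly of the mitochondrial ribosome, 19 were called lower, and on equal totals of reads 12 were called higher. The rRNA methyltransferase Mrm2 led the falls at −1.09, and was at −0.38 and not called on equal totals of reads. Rpusd4, a pseudouridine synthase of the large rRNA, had a log2 fold change of 0.32 that was not called (limma, adjusted p = 0.086). On equal totals of reads Rpusd4 was at 1.04 and called higher. Of 14 genes for the transcription and upkeep of mtDNA, 12 were tested and 10 were called lower, and on equal totals of reads 3 lower and 1 higher. They included Tfb2m, which opens the promoters of mtDNA, at −1.23, the polymerase Polrmt at −0.66 and Tfam, which packages mtDNA, at −0.70. On equal totals of reads Polrmt (0.07) and Tfam (0.02) were not called. Over these lists together, 41 of 53 tested genes were called lower, with a median log2 fold change of −0.59, and 0 were called higher (limma), a direction in which 0 genes had an unadjusted p under 0.05, and edgeR and DESeq2 called 0. The shares over all tested genes were 33.0% lower and 33.5% higher. On equal totals of reads 5 of the 53 were lower, a share near the 11.1% of all tested genes, and 18 were higher, against 66.7%. Mtif2 (−0.46), Mtrf1 (−0.46), Tfb2m (−0.51), Polg2 (−0.50) and Lrpprc (−0.28) were the 5, of which Polg2 encodes an accessory subunit of the mtDNA polymerase and Lrpprc a protein that stabilizes the mRNAs of mtDNA, both named after their values were seen. The 13 messenger RNAs of mtDNA and its ribosomal RNAs mt-Rnr1 and mt-Rnr2 are listed at 0 in every library. The sources used here do not say whether mtDNA was left out of the counting, so these zeros were not read as levels. Shares of all reads on genes hold no reads of these RNAs.

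Promoters of the members were read for motifs of factors known to act on nuclear genes for mitochondria. RefSeq windows in GRCm38.p6, from 250 bases before to 50 after the gene start, were at hand for 69 of the 78 members and for 17491 protein-coding genes. The 17491 genes were not limited to genes that passed the filter on low values, which all 78 members did. The shares are thus not matched for expression in liver, and shares among tested genes alone are not given. The ETS motif CCGGAAG, bound by Gabpa, was in the windows of 26 members (37.7%) and of 12.9% of all genes. The YY1 motif AANATGGC was in 21 (30.4%) against 7.46%, and the NRF1 motif, GCGCA with any base and GCGC after it, in 13 (18.8%) against 7.17%. The E-box CACGTG, bound by Bmal1 and Clock, was in 5 (7.25%) against 8.91%, and TATAAA in 5 (7.25%) against 14.8%. Both strands were searched and none of these motifs is contained in another. The median log2 fold change was −0.50 with the ETS motif and −0.48 without, −0.55 and −0.48 for YY1, −0.49 and −0.48 for NRF1, −0.56 and −0.48 for the E-box, and −0.46 and −0.50 for TATAAA. None of these differences was tested.

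The windows of 5 members are shown because genes with the same motif had different fold changes. They run from 200 bases before the start to at most 30 after the earlier of the RefSeq and GENCODE starts, 5′ to 3′ on the gene's strand, and capitals mark a match to a motif on either strand. Mrpl12, Mrpl44 and Mrpl45 hold the NRF1 motif, Mrpl45 at 3 places, Mrps12 holds the ETS and YY1 motifs, and Mrps18a the ETS motif. Mrps18a also holds the YY1 motif farther downstream, outside the stretch printed here.
Mrpl12, chr11:120484437-120484642, plus strand: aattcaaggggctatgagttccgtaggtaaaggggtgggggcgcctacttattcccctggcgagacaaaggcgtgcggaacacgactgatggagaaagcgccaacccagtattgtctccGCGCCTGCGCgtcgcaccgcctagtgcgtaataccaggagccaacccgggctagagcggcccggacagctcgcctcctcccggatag
Mrpl44, chr1:79775818-79776047, plus strand: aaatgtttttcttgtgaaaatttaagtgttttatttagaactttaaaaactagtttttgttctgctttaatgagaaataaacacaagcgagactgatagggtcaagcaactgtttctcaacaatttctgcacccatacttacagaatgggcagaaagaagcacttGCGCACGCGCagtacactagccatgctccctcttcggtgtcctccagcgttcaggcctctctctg
Mrpl45, chr11:97315516-97315745, plus strand: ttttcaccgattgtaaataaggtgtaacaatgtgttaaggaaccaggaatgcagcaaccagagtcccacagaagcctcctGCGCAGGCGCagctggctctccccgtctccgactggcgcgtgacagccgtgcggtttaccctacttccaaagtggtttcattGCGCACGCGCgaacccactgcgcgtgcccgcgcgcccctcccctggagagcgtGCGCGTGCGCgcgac
Mrps12, chr7:28741792-28742021, minus strand: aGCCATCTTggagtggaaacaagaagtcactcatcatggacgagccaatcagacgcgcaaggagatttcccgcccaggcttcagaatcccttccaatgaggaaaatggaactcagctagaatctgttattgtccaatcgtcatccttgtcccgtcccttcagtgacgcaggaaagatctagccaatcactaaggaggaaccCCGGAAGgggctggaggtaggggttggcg
Mrps18a, chr17:46110804-46111015, plus strand: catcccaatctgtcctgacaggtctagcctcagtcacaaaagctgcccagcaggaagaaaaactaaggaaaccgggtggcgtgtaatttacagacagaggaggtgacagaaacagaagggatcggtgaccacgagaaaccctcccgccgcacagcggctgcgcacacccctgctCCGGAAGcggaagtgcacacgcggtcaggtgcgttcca
Of the genes with the NRF1 motif in these windows, Mrpl12 had a log2 fold change of −0.85, Mrpl44 of −0.41 and Mrpl45 of −0.14. Of those with the ETS motif, Mrps12 had −0.57 and Mrps18a −0.12. The 5 genes were chosen for these contrasts, and differences between them were not tested. On equal totals of reads Mrpl12 (−0.12) and Mrps12 (0.15) were not called, and Mrpl44 (0.31), Mrpl45 (0.59) and Mrps18a (0.60) were called higher.

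Many members share a start region with a neighbour read in the opposite direction. Such a head-to-head neighbour, starting within 1000 bases upstream or overlapping by up to 500, was found for 26 of the 78 members (33.3%) and for 13.7% of 13171 tested coding genes. Mrpl46 and Mrps11 are each other's neighbour. Of the 24 neighbours that are not members, 10 were called lower, 4 higher and 10 neither, where 33.0% of all tested genes were lower and 33.5% higher. With equal totals of reads 2 were lower and 13 higher, against 11.1% and 66.7%. Their median log2 fold change was −0.22 with size factors and 0.50 on equal totals of reads, where their partners among the members had −0.55 and 0.17. The neighbours named here were chosen after their values were seen. Mrpl49 starts 59 bases from Fau, which encodes a cytosolic ribosomal protein, and had a log2 fold change of −0.91 where Fau had 0.30. Fau had 2291, 2509 and 2417 normalized counts in WT and 3081, 2692 and 3128 in Vps15LKO livers, and both genes were called, in opposite directions. Fau was at 1.03 and called higher on equal totals of reads, where Mrpl49 was not called.

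Mrpl51 (−0.56) starts 100 bases from Ncapd2, a condensin subunit at 2.23, and Mrpl57 (−0.50) starts 49 bases from Ska3, a kinetochore protein at 2.55. Ncapd2 and Ska3 were called higher on both scales, Ska3 from only 5.30, 2.50 and 10.8 normalized counts in WT. With size factors other pairs were called in the same direction. Mrpl36 (−0.41) and the respiratory complex I subunit Ndufs6 (−1.01) were both called lower, as were Mrps12 (−0.57) and Sars2 (−0.70), the mitochondrial seryl-tRNA synthetase. Mrpl36 was called higher (0.32) and Ndufs6 lower (−0.28) on equal totals of reads, where Mrps12 (0.15) and Sars2 (0.02) were not called. Mrpl54, the member that rose, starts 26 bases from Apba3, which was called lower with size factors (−0.27) and higher on equal totals of reads (0.46).

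**Figure D5:**
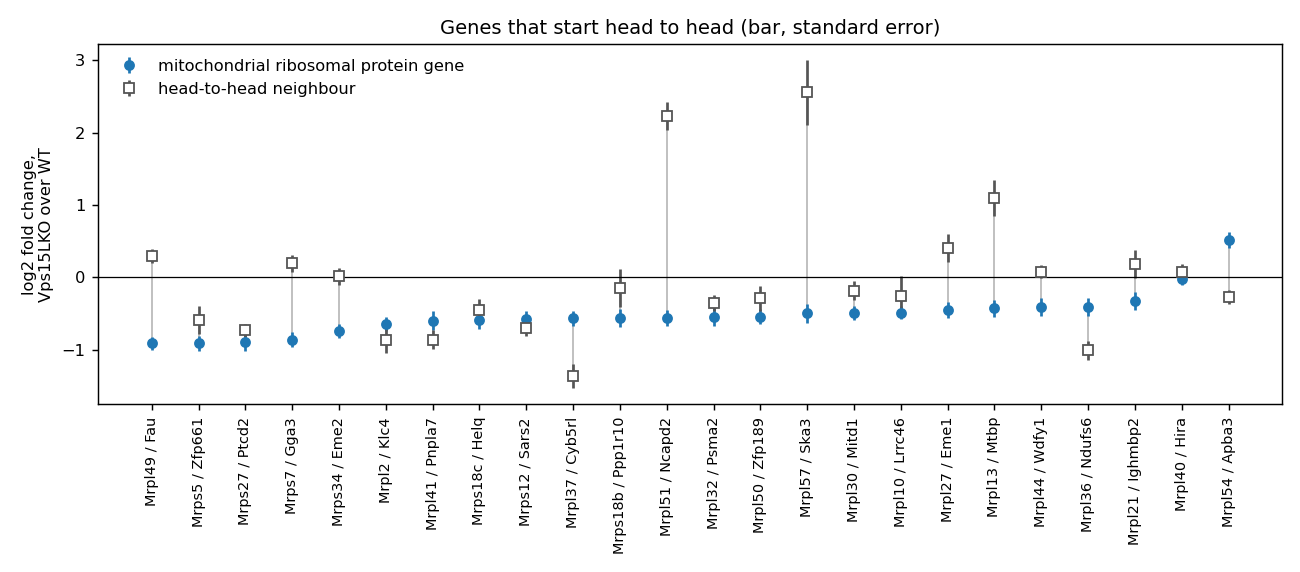
Log2 fold change of normalized counts, Vps15LKO over WT, of members (blue circles) and of the gene that starts head to head with each (open squares; bars, standard error; n = 3 livers per genotype; thin lines join a pair), for the 24 neighbours that are not members. The members lie between −0.91 and 0.52, and the neighbours between −1.36 and 2.55; the scale is that of the size factors, and on equal totals of reads the median of the neighbours is 0.50.

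The level of the targeted gene depended on the scale. Pik3r4, which encodes Vps15, had 508, 573 and 460 normalized counts in WT and 341, 362 and 355 in Vps15LKO livers, a log2 fold change of −0.54 (limma, adjusted p = 0.0021), and 0.19 on equal totals of reads, where it was not called. The deletion removes 1 exon, and a count over the whole gene does not read that exon apart, so this value does not check the labels. The livers also differed in their cell markers, beside 33.0% of all tested genes lower and 33.5% higher. Hepatocyte markers were present in all libraries, with 6 of 8 called lower and a summed normalized count of 3084480 to 3429620 in WT and 1010650 to 1497970 in Vps15LKO livers. Macrophage markers (7 of 8 higher, 7096 to 8514 against 22183 to 25960), stellate cell markers (8 of 8 higher, 6717 to 7212 against 28888 to 33752), cholangiocyte markers (7 of 7 tested higher, 709 to 836 against 11700 to 22819) and proliferation markers (8 of 8 higher, 557 to 828 against 3575 to 3823) were higher in Vps15LKO livers. Of 6 tested lymphocyte markers 5 were higher, with sums of 105 to 139 against 299 to 348, and of 8 endothelial markers 4 were lower and 3 higher, with sums of 8751 to 9541 against 7666 to 9253. With equal totals of reads 5 endothelial markers were called higher, and the counts of hepatocyte, stellate cell, cholangiocyte, lymphocyte and proliferation markers were as with size factors, with 8 of 8 macrophage markers higher, against 11.1% of all tested genes lower and 66.7% higher. None of these lists had a marker at 0 in all libraries, and the part of these shifts in the levels of the mitochondrial ribosomal proteins was not tested.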

How the data were processed

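RNA-Seq libraries from 3 WT and 3 Vps15LKO livers were analysed, grouped by their titles. According to the methods and labels, the authors prepared strand-marked poly-A libraries, used SOAPnuke to filter reads, HISAT2 to map them to GRCm38 and featureCounts from Subread to count them per gene; edgeR is also named. Tool versions and the strand setting of the counting are not given in the sources used here. The values deposited by the authors are a signal, counts divided by 1 DESeq2 size factor per library. All values above 0 (100% per library) were whole multiples of 1 read within 0.01 read, so whole reads were recovered.

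Symbols, coordinates and exon lengths come from GENCODE M21, which matched 55227 of the 56305 genes. The rule on symbols also met 5 processed pseudogenes, which are not protein coding and were left out. Genes that reached 20 normalized counts in 3 or more livers were compared with limma 3.58.1 (lmFit, eBayes with a trend) in R 4.3.3 on log2(normalized count + 1), with Benjamini-Hochberg adjustment over the 15430 tested genes, after a check on simulated data. Calls needed an adjusted p below 0.05 and a fold of 1.2 or more. The members, lists and tests were chosen with earlier results of these data known.

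Members named in the text are the 6 largest called falls and the called rises with a mean of at least 100, the 3 highest and 3 lowest WT levels per kb, genes with known roles, and members that were not called or are paired with a neighbour. The last of these, and the genes outside the rule that are marked so, were chosen after their values were seen. Alternatives were other pseudocounts, filters, scalings and thresholds, limma voom, edgeR 4.0.16 and DESeq2 1.42.0 applied to the recovered reads, each liver left out, and replicate number as a block. Promoter sequences are from RefSeq (GRCm38.p6). Tables and plots were made with pandas 2.3.3, numpy 2.4.6 and matplotlib 3.10.9 in Python 3.11.15. The libraries held 16137093 to 18110223 reads counted on genes, which is less than all reads sequenced. Replicates of a genotype differed by a chi-square of 14 to 36.4 per gene, far beyond sampling noise.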

Additional observations from a re-analysis of the deposited data

How the results depend on the processing

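Of the alternatives tried, scaling to equal totals of reads moved the calls of the members most, and the direction of most members follows from the size factors. On equal totals of reads the median log2 fold change of the members became 0.23, with 4 called lower and 28 higher, and Pik3r4 was at 0.19. Signs also turned there for Mrpl10 (0.24), Mrpl11 (0.48), Mrpl19 (0.64), Mrpl3 (0.39), Mrpl32 (0.18), Mrpl44 (0.31), Mrpl45 (0.59), Mrpl58 (0.36), Mrps12 (0.15), Mrps18a (0.60), Mrps18b (0.16), Mrps18c (0.13), Mrps30 (0.33) and Mrps36 (0.25). Of the genes outside the symbol rule, 5 were then called lower and 18 higher. With upper-quartile scaling, which raised the median of all tested genes by 0.12, the median of the members was −0.37, 51 members were called lower and 2 higher, 1 gene outside the rule was called higher, and Mrpl19 (0.042) and Mrps18a (0.00025) turned sign. A fold of at least 1.5 left 27 members lower and 0 higher (limma; 1 had an unadjusted p under 0.05, and edgeR and DESeq2 each called 1 at a fold of 1.2), 27 genes outside the rule lower, and Pik3r4 (−0.54) not called, by construction. Without the 33 members that share exonic bases with another gene, an alternative chosen after seeing the data, 34 of 45 were called lower and 1 higher. With 1 liver left out, 54 to 60 members were called lower and 1 to 2 higher, the 2 being without WT replicate 1, which also brought in Mrpl33. Under the other alternatives 51 to 63 members were called lower and 1 higher. Of 572 values for 26 named members under these alternatives, 529 kept their direction and side of the threshold, 22 lost and 5 gained a call, and 16 turned sign. Where a cause is not the construction of the alternative, the cause was not tested.

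After removal of the group means, livers of the same number correlated at −0.0099, −0.011 and 0.049, and those of different numbers at −0.063 to 0.088. With 3 livers per genotype, these values cannot show whether the livers were paired. The paper states that breeding was set up to give both genotypes in the same litter. With replicate number as a block, 58 members were called lower and 1 higher, 38 genes outside the rule were called lower and 0 higher, and the median of the members was −0.49.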

Other observations

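Of 10 listed regulators of mitochondrial gene expression, 5 were called lower and 2 higher with size factors, where 33.0% and 33.5% of all tested genes were. With equal totals of reads 5 were called higher, against 66.7%, and none of those lower with size factors was called. Gabpa encodes the DNA-binding subunit of the ETS factor whose motif was searched in the promoters of the members. Gabpa had 1152, 1250 and 1126 normalized counts in WT and 772, 699 and 567 in Vps15LKO livers. Its log2 fold change was −0.80 ± 0.12 (SE, n = 3 livers per genotype, limma, adjusted p = 4.7e-04), and −0.08 and not called on equal totals of reads. Members with and without the ETS motif had medians of −0.50 and −0.48, and a link between Gabpa and the members was not tested. The coactivator genes Ppargc1a (−0.69) and Ppargc1b (−0.97), the receptor gene Esrra (−0.53) and Yy1 (−0.49) were the others called lower. The genotypes overlapped for Ppargc1a, at 204, 227 and 120 normalized counts in WT and 109, 89.1 and 134 in Vps15LKO livers (limma, adjusted p = 0.038). Nrf1 had 178, 186 and 170 normalized counts in WT and 176, 176 and 207 in Vps15LKO livers, and its log2 fold change of 0.06 was not called, while on equal totals of reads it was 0.78 and called higher.

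Myc, a transcription factor that drives ribosome production in growing cells, had 268, 96.2 and 67.4 normalized counts in WT and 1124, 912 and 934 in Vps15LKO livers, without overlap. Its log2 fold change was 3.02 ± 0.42 (limma, adjusted p = 2.8e-04). Pprc1, the coactivator of this family that is induced by growth signals, had 261, 344 and 439 in WT and 561, 623 and 635 in Vps15LKO livers, a log2 fold change of 0.83. Both were also called higher on equal totals of reads, at 3.75 and 1.55. In WT replicate 1 Myc was well above the other WT livers.

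Some members have near copies or overlap other genes. The 5 processed pseudogenes held at most 10 reads per library, except Mrpl48-ps with 57 to 114. In all, 33 members share exonic bases with another gene, most of them on the opposite strand, and the longest stretch is 4590 bases between Mrps25 and Nr2c2. Of these 33, 27 were called lower, with a median log2 fold change of −0.45, and of the other 45 members 34 were called lower, with a median of −0.50, where 33.0% of all tested genes were lower. With equal totals of reads 1 of the 33 was lower and 14 higher, and 3 of the 45 were lower and 14 higher, against 11.1% and 66.7% of all tested genes.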
